A study of Mus musculus with 12 samples.

Results

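The 37 genes of the mouse mitochondrial genome were examined in primary bone marrow-derived macrophages, as the rows of both count tables whose symbol starts with mt-. They are 37 of the 54582 symbols that the tables share: 13 protein genes, 2 rRNA genes and 22 tRNA genes. Counts were found for 17 of the 37 in libraries without apoptotic cells and for 19 in libraries with them, and 17 tRNA genes had no count in any of the 12 libraries. The study asked how the kinesin KIF13B bears on efferocytosis, the uptake of apoptotic cells. The 4 groups had 3 libraries each, made from polyA RNA and sequenced as 150 bp paired-end reads.

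The WT group held wild type macrophages and the KO group macrophages labelled both as homozygous null for Kif13b and as a knock down, so the kind of allele is in doubt. Cells came from the tibial marrow of mice aged 6 to 8 weeks. WT + AC and KO + AC were the same genotypes after 90 min in co-culture with apoptotic cells of the Jurkat line (human T cell leukaemia), 5 of them to each 1 macrophage. The labels put the serum of WT libraries 1 to 3 at 10, 10 and 11% and that of KO libraries 1 to 3 at 12, 13 and 14%, so serum and genotype cannot be told apart there if these values are right. The 6 libraries with apoptotic cells stand in another table than the 6 without, so condition and table cannot be told apart. The labels do not tell if replicate libraries were made from different animals or cultures, and p-values therefore cover only their spread, which may be technical.

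The mitochondrial genome is a circle that is copied into long RNAs from both strands, and these are then split into single RNAs, largely where tRNAs lie between the other genes. The protein genes encode core subunits of complexes I, III and IV of the respiratory chain and of the ATP synthase (complex V), while the rRNAs form the mitochondrial ribosome. Macrophages use this chain for ATP and for signals that accompany activation. In the annotation (GENCODE vM21, GRCm38), 28 members lie on the plus strand and 9, mt-Nd6 and 8 tRNA genes, on the minus strand. Members lie end to end and some overlap: mt-Atp8 and mt-Atp6 share 43 bases on one strand, while mt-Nd5 and mt-Nd6 share 14 bases on opposite strands. The strand setting of the counting is not given in the sources used here, so reads from overlapping or antisense RNAs cannot be told apart.

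Part of the mitochondrial genome also stands in the nuclear genome as an almost identical copy, and counts of the genes inside that stretch are uncertain. The copy on chr1:24611535-24616197 (GRCm38, minus strand) carries 7 annotated copies that match mitochondrial positions 6390 to 11042. The mitochondrial genes mt-Co2, mt-Atp8, mt-Atp6, mt-Co3, mt-Nd3 and mt-Nd4l lie whole inside it, and mt-Co1 (31.3% of its bases) and mt-Nd4 (63.6%) lie inside in part. For mt-Atp8 this rests on its position alone, since 21.1% of its bases are in an annotated copy and the sequence opposite the rest was not read. The other 7 protein and rRNA genes lie outside. How the authors treated reads that align to more than 1 place is not given in the sources used here. The first 90 bases of mt-Co2 (chrM:7013-7102, plus strand), of its chromosome 1 copy Gm28661 (chr1:24615476-24615565, minus strand) and of its chromosome 2 copy Gm13341 (chr2:22587873-22587962, minus strand) are shown because they show how much a read can tell these genes apart. Capitals mark bases that differ from the mitochondrial gene, and all sequences are from GENCODE vM21 transcripts.
mt-Co2: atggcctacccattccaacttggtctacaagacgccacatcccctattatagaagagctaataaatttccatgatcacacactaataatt
Gm28661: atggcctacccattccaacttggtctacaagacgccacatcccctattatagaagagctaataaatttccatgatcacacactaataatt
Gm13341: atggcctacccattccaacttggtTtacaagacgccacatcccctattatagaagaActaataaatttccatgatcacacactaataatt
The chromosome 1 copy has 0 differences in this window and the chromosome 2 copy has 2. Of all 150-base windows of mt-Co2, 99.4% also occur without any difference in an annotated nuclear copy, and the same holds for 0% of the windows of mt-Nd1 and mt-Cytb.

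Total counts were 18256622 to 18770757 per library without and 17000976 to 17285594 with apoptotic cells. Symbols with a count numbered 18335 to 18540 without and 31787 to 32801 with them. The common biological coefficient of variation of the libraries was 0.117 in the table without apoptotic cells and 0.0294 in the other. Kif13b had 599, 546 and 535 counts in WT, 281, 345 and 424 in KO, 1600, 1561 and 1634 in WT + AC and 1697, 1697 and 1721 in KO + AC, so with apoptotic cells it was higher in the libraries labelled KO, against the label. Each of the 10 macrophage markers was detected in every group, and their summed level was 28444 to 33915 CPM (counts per 1000000 counts) without and 15124 to 17440 with apoptotic cells. Marker sums are per total counts of the library, without scaling. Levels of single genes below are CPM of the scaled library unless called unscaled. Markers of fibroblasts and stromal cells summed to 592 to 751 CPM in WT and 824 to 1178 in KO, and to 455 to 503 in WT + AC and 302 to 328 in KO + AC. Markers of T cells, the type Jurkat derives from, summed to 12.1 to 23.6 CPM without and 33.9 to 48.5 with apoptotic cells. Of 6 tested, 3 were called higher and 1 lower with apoptotic cells in each genotype. Over all genes, 48.3 to 49.6% were called higher and 36.7% lower. Monocyte markers also summed higher with apoptotic cells (750 to 1281 CPM without and 2506 to 2953 with). So did B cell markers (2.44 to 2.96 and 4.49 to 5.79) and erythroid markers, while those of neutrophils and osteoclasts summed lower.

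Mitochondrial genes took 1.42, 2.05 and 2.52% of all counts in WT libraries 1 to 3 and 1.11, 0.578 and 1.23% in KO libraries 1 to 3. Every KO library lay below every WT library, and the libraries of each group differed by far more than counting error, since the 95% exact binomial interval of KO 2, for example, was 0.574 to 0.581%. With apoptotic cells the shares were 1.61, 1.5004 and 1.51% in WT + AC and 1.495, 1.51 and 1.48% in KO + AC, and these overlapped. The group means were 1.997 ± 0.553, 0.973 ± 0.346, 1.54 ± 0.0611 and 1.495 ± 0.0146% (SD, n = 3 each) in that order. Such intervals cover counting error only, since no molecular identifiers mark separate molecules. In these bulk samples fewer cells of a type and less RNA per cell cannot be told apart.

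Protein genes held most mitochondrial counts in every group, and the rRNA part was larger with apoptotic cells. The 2 rRNAs made up 3.94 ± 0.66% of mitochondrial counts in WT, 5.08 ± 0.97% in KO, 14.2 ± 0.90% in WT + AC and 12.7 ± 0.37% in KO + AC. The range was 3.40 to 6.20% over the 6 libraries without and 12.5 to 15.2% over the 6 libraries with apoptotic cells, so the conditions did not overlap. The tRNA part was 0.347 to 0.617% without and 0.169 to 0.188% with apoptotic cells, nearly all of it mt-Tp. Over all counts the protein genes took 1.91% in WT, 0.921% in KO, 1.32% in WT + AC and 1.30% in KO + AC, which the plot of share by RNA class shows next to the rRNAs and tRNAs.

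**Figure D1:**
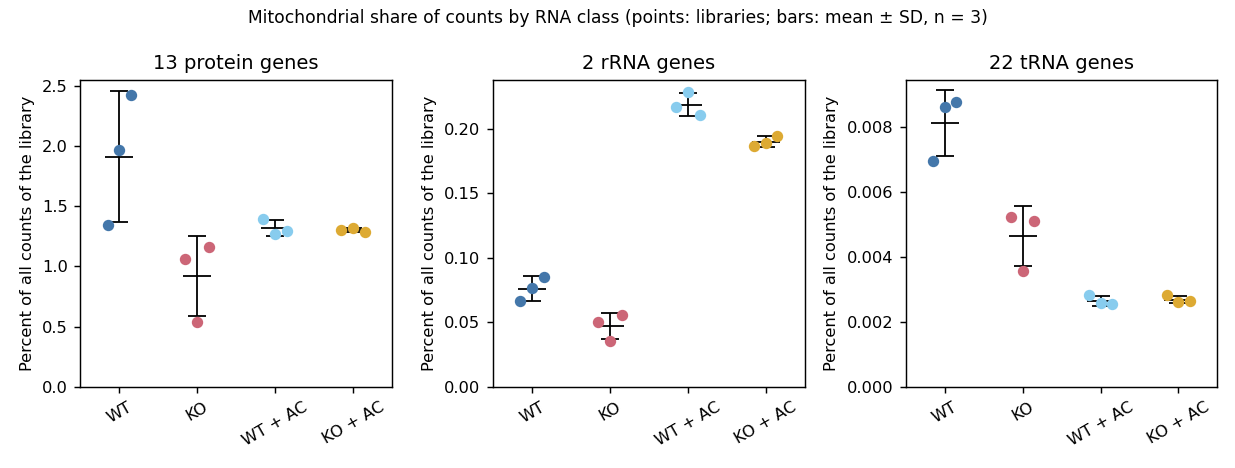
Percent of all counts of each library (vertical axes, scaled separately) on the 13 protein, 2 rRNA and 22 tRNA genes, by group (horizontal axes). Points are libraries and bars are the mean ± SD of 3 libraries; protein gene shares in KO lie below those in WT, and rRNA shares with apoptotic cells (AC) lie above those without.

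mt-Co1, the catalytic subunit of complex IV, was the most abundant member. It had 163016, 229989 and 273384 counts in WT, 136180, 70660 and 149410 in KO, 126973, 119669 and 123088 in WT + AC and 126071, 125694 and 122825 in KO + AC. It was 60.9 ± 1.58% of mitochondrial counts in WT, 65.9 ± 0.71% in KO, 46.8 ± 0.43% in WT + AC and 48.4 ± 0.30% in KO + AC, and the ranges of the 4 groups did not overlap. Levels per gene length, as CPM per kb, can be compared between genes. On that scale mt-Co1 stood at 8799 ± 2337 in WT, followed by mt-Nd1 of complex I (2676 ± 767) and mt-Cytb of complex III (1737 ± 590). The ranges given by mean ± SD overlapped for mt-Nd1 and mt-Cytb and did not for mt-Co1 and mt-Nd1.

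The order of the first 2 genes was the same in all groups. mt-Co1 was at 4980 ± 1663, 3999 ± 163 and 4217 ± 76.4 CPM per kb in KO, WT + AC and KO + AC, and mt-Nd1 at 1266 ± 521, 1258 ± 88.1 and 1229 ± 21.5. The other complex IV genes were far lower, with mt-Co2 at 82.6 ± 22.7 CPM per kb in WT and mt-Co3 at 68.1 ± 12.5. In all 4 groups the 6 genes inside the chromosome 1 copy were the 6 lowest of the 15 protein and rRNA genes per length, from 82.6 for mt-Co2 to 3.91 ± 1.13 for mt-Nd4l in WT. All 6 were lower than mt-Nd6 (289.9 ± 110 in WT), the lowest of the genes outside it. The plot of level per length shows this gap, which was there before and after apoptotic cells were added. Whether it follows the handling of reads shared with nuclear copies was not tested.

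**Figure D2:**
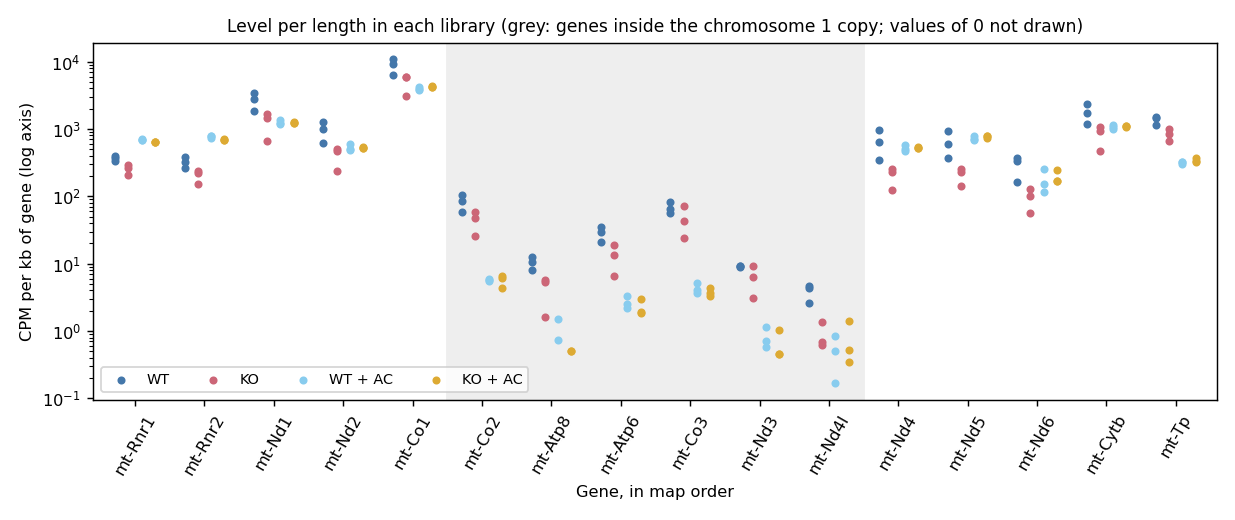
CPM per kb of gene on a log axis (vertical) for 16 members in their order on the mitochondrial genome (horizontal); each point is 1 library, coloured by group, values of 0 are not drawn and AC means apoptotic cells. The genes on grey, inside the chromosome 1 copy, lie below the others in all 4 groups. With AC they also lie below their own level without AC, except mt-Nd4l in KO, which overlaps.

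Of the 22 tRNA genes, 5 had any count, and 17 had none in any library. A count of 0 allows up to 3 counts, or 0.160 to 0.176 unscaled CPM in these libraries. mt-Tp, the tRNA for proline, stood apart with 1280, 1574 and 1604 counts in WT, 977, 658 and 938 in KO, 433, 401 and 428 in WT + AC and 466, 427 and 420 in KO + AC. It is the last gene of the annotation (chrM:15356-15422, minus strand), between mt-Tt and the end of the annotated genes. mt-Ts1, a serine tRNA whose last 3 bases lie under the end of mt-Co1 on the other strand (chrM:6870-6938, minus strand), had no count without apoptotic cells, 45, 36 and 12 in WT + AC and 18, 22 and 27 in KO + AC. By group means of unscaled CPM, it was at least 11.1-fold higher in WT + AC than in WT. In KO + AC it was at least 8.01-fold higher than in KO, also unscaled. Here 3 counts per library were taken for a count of 0, which bounds only the level without apoptotic cells. The WT + AC mean itself varied, at 1.82 ± 1.01 unscaled CPM. Scaled in the joint fit it was lower, at 1.56 ± 0.87 CPM, so these bounds hold only without scaling. mt-Tm, a methionine tRNA between mt-Tq and mt-Nd2 (chrM:3845-3913, plus strand), had 10 counts in all, in 5 libraries with apoptotic cells, while mt-Tn had 2 counts and mt-Tq 1. The sequences of the 3 with more than 2 counts are shown because each is shorter than a 150 bp read.
mt-Tp: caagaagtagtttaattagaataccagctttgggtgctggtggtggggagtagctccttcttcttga
mt-Ts1: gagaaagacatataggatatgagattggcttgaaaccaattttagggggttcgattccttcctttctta
mt-Tm: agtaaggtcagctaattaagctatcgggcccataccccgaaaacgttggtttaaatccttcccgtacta
They are 67, 69 and 69 bases long, in lower case throughout, from the GENCODE vM21 transcripts, each on its own strand. Whether counts on them are tRNA or part of a longer RNA cannot be told from these tables.

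The first comparison asked how KO differed from WT without apoptotic cells. All 16 tested members had lower means in KO, and 10 of the 16 passed the test (adjusted p under 0.05 over all genes), all of them lower, where 8.24% of all 12640 genes tested were called lower and 16.2% in either direction. Groups did not overlap for 13 of 16, all lower in KO, against 17.2% of all genes lower in the same way. The median log2 fold change was -1.07 over the 16 members and 0.02 over all genes. mt-Nd4l, mt-Nd4, mt-Nd6 and mt-Nd5 had the largest changes, and mt-Rnr1 the smallest.

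The rRNAs fell by less than the called protein genes. mt-Rnr1, the small ribosomal RNA (chrM:70-1024, plus strand), had 5313, 5724 and 6057 counts in WT and 4155, 2980 and 4107 in KO. Scaled, this was 299 ± 25.4 CPM against 210.1 ± 35.6, a log2 fold change of -0.51 (SE 0.13, edgeR adjusted p = 0.0164). mt-Rnr2, the large ribosomal RNA (chrM:1094-2675, plus strand), had 6909, 8333 and 9624 counts in WT and 5258, 3641 and 6099 in KO. It changed by -0.64 on the log2 scale (SE 0.16, edgeR adjusted p = 0.0110). No KO library reached the lowest WT library for either rRNA, and both calls ended with a correction for gene length and GC content (log2 -0.23 and -0.29, adjusted p = 0.107 and 0.0943).

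Of the 7 complex I genes, 4 fell and 3 did not pass, with a median log2 fold change of -1.59. mt-Nd4 had 8047, 14653 and 21384 counts in WT and 4703, 2579 and 5721 in KO, or 776 ± 365 CPM against 241 ± 80.5. The change was -1.69 (SE 0.42, edgeR adjusted p = 0.0410), and all KO libraries lay below all WT libraries. mt-Nd5 had 11378, 17684 and 27117 counts in WT and 6146, 3923 and 7625 in KO. It changed by -1.59 (SE 0.37, edgeR adjusted p = 0.0338), again without overlap. mt-Nd6, the only protein gene on the minus strand (chrM:13552-14070), had 1420, 2873 and 3074 counts in WT and 976, 431 and 851 in KO. Its log2 fold change was -1.62 (edgeR adjusted p = 0.0401), close to that of mt-Nd5 on the plus strand. Counts of mt-Nd6 per 1000 of mt-Nd5 were 113 to 162 in WT and 109.9 to 159 in KO and overlapped. mt-Nd4l had few counts, 13, 23 and 21 in WT and 6, 3 and 3 in KO, with a change of -2.12 (SE 0.43, edgeR adjusted p = 0.00425).

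mt-Nd1, the second most abundant member, had 29807, 43300 and 52390 counts in WT and 23292, 9634 and 23124 in KO, with no overlap and no call (log2 -1.08, SE 0.37, edgeR adjusted p = 0.0948). mt-Nd2 was at -1.25 (adjusted p = 0.0607) and mt-Nd3 at -0.55 (adjusted p = 0.156), where WT and KO overlapped. Among the complex IV genes mt-Co1 passed (log2 -0.82, SE 0.25, edgeR adjusted p = 0.0417), with the counts given above and no overlap. This call was kept in 6 of 14 alternatives. It was lost in 8, among them DESeq2 (adjusted p = 0.0884) and edgeR with the length and GC correction (adjusted p = 0.0815). mt-Co2 (-0.89, adjusted p = 0.110) and mt-Co3 (-0.55, adjusted p = 0.337) did not pass, and both overlapped between groups. mt-Cytb, the complex III subunit, had 22288, 31766 and 43287 counts in WT and 18232, 7945 and 17765 in KO, a difference of -1.06 that did not pass (adjusted p = 0.0994). Both ATP synthase genes fell, mt-Atp6 by 1.13 on the log2 scale (edgeR adjusted p = 0.0462) and mt-Atp8 by 1.27 (adjusted p = 0.0163). The tRNA gene mt-Tp was at 78.1 ± 10.8 CPM in WT and 48.1 ± 9.58 in KO, a change of -0.70 (SE 0.14, edgeR adjusted p = 0.00448).

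Because all members differed in 1 direction, their relative amounts show which differed more. mt-Nd4 was 3.07 to 4.63% of mitochondrial counts in WT and 2.25 to 2.54% in KO, and mt-Nd2 4.03 to 4.58% and 3.40 to 3.63%. The parts of 3 other complex I genes were lower in KO too. They were mt-Nd5 (4.35 to 5.87% in WT and 2.94 to 3.68% in KO), mt-Nd6 (0.5425 to 0.766% and 0.378 to 0.467%) and mt-Nd1 (11.35 to 11.55% and 9.03 to 11.135%). The ranges of WT and KO were apart for all of these genes. The direction was opposite to mt-Co1, whose part was larger in KO (65.1 to 66.4% against 59.2 to 62.3%). Genes inside the chromosome 1 copy did not stand apart here. The median log2 fold change was -1.01 for the 6 inside it, with 3 called. It was -1.08 for the 7 outside it, with 4 called, both rRNAs among them. The plot of genotype differences shows the negative values along the whole map.

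**Figure D3:**
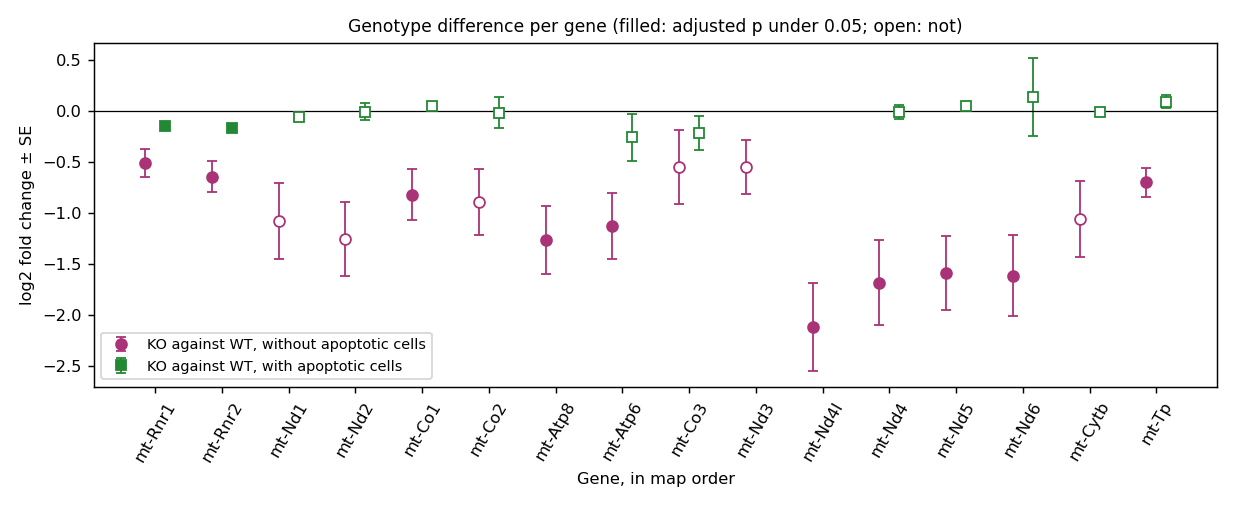
Log2 fold change of KO against WT (vertical axis, ± SE; bars shorter than the symbol are hidden by it) for the members tested, in map order (horizontal axis), without (circles) and with apoptotic cells (squares). Filled symbols had an adjusted p under 0.05: 10 of 16 without apoptotic cells, all negative, and the 2 rRNAs with them; mt-Ts1, tested with apoptotic cells alone, is not drawn.

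How many members passed depended on single libraries and on the method, while the sign did not. DESeq2 and the length and GC correction each gave 8 calls in place of 10, next to 16.1 and 7.33% of all genes. Leaving out WT 3 gave 3 calls in place of 10, leaving out WT 2 or KO 3 gave 5 and leaving out WT 1 gave 14. The share of all genes called moved as well, from 16.2% to 2.87% without WT 3 and 7.79% without WT 2. It was 32.4% without KO 3 and 13.9% without WT 1. With KO 1 and KO 2 both left out, which leaves only KO 3 in its group, the median over protein and rRNA genes was still -0.88. Each of the 16 members kept a negative log2 fold change under the 14 alternatives, wherever it was tested. Calls were less stable: mt-Tp lost its call in 1 of 14, mt-Atp6 and mt-Nd6 in 7 and mt-Co1 in 8. KO 2 was the lowest KO library for every protein and rRNA gene except mt-Nd4l, where KO 3 had the same count. Fibroblast markers were higher in KO (7 of 10 called higher, 824 to 1178 CPM against 592 to 751). Their part in the result was not tested.

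With apoptotic cells, KO + AC and WT + AC differed little. Of 14 members tested, 2 were lower in KO + AC and 0 higher, where 11.3% of all 16467 genes were called, 4.75% lower and 6.58% higher. Both were rRNAs, and they were also the 2 members whose groups did not overlap (13.4% of all genes were lower without overlap). mt-Rnr1 had 12782, 13851 and 12972 counts in WT + AC and 11551, 11716 and 11686 in KO + AC, or 762 ± 24.5 CPM against 689 ± 4.03. The groups did not overlap, and the log2 fold change was -0.15 (SE 0.03, edgeR adjusted p = 0.00138). mt-Rnr2 had 24132, 24982 and 23354 counts against 20661, 20925 and 21670, also without overlap, with a change of -0.16 (SE 0.03, edgeR adjusted p = 0.000347). These are differences of 1.11-fold and 1.12-fold in libraries that vary little, and neither passed in the joint fit of 12 libraries (adjusted p = 0.798 and 0.843), which shares the larger spread of the libraries without apoptotic cells.

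No protein gene passed with apoptotic cells. The 10 tested had log2 fold changes from -0.26 to 0.14 with a median of -0.01, next to -0.02 over all genes, and all 10 overlapped between groups. mt-Co1 differed by 0.05 (SE 0.03), mt-Nd5 by 0.05 (SE 0.04) and mt-Nd4 by -0.01 (SE 0.07). mt-Nd6 varied most between libraries of one group, with 2644, 1215 and 1567 counts in WT + AC and 1687, 2472 and 1676 in KO + AC (log2 0.14, SE 0.38). mt-Tp was at 24.3 ± 1.28 CPM in WT + AC and 25.9 ± 1.60 in KO + AC (0.09, SE 0.07, edgeR adjusted p = 0.442), and mt-Ts1 differed by -0.44 (SE 0.35, adjusted p = 0.514). mt-Atp8, mt-Nd3 and mt-Nd4l, at 0 to 8 counts per library, were too low to be tested in this table.

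The third question was what differed with apoptotic cells within each genotype. This contrast crosses the 2 tables, and most genes of any kind passed: 85% of the 16810 genes tested in WT and 86.3% in KO. Of 17 members tested, 3 were higher and 10 lower in WT + AC than in WT, where 48.3% of all genes were called higher and 36.7% lower. For KO + AC against KO the counts were 5 and 6, with 49.6% of all genes called higher and 36.7% lower. Groups did not overlap for 3 members higher and 11 lower in WT (49.3 and 37.4% of all genes) and for 7 and 6 in KO (50.1 and 36.6%). Over both directions, a smaller share of members than of all genes was called in either genotype, so the results are described by direction, size and RNA class. The all-gene median was 0.25 in WT and 0.32 in KO on the log2 scale. It was 0.38 and 0.46 with scaling from nuclear protein-coding genes and -0.04 and 0.00 with the length and GC correction.

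Both rRNAs were higher with apoptotic cells. mt-Rnr2 was at 507 ± 91.2 CPM in WT and 1211 ± 41.1 in WT + AC, a log2 fold change of 1.26 (SE 0.13, edgeR adjusted p = 5.18e-09), and at 324 ± 70.1 in KO and 1100.2 ± 23.1 in KO + AC, a change of 1.76 (SE 0.13, adjusted p = 1.58e-11). mt-Rnr1 changed by 0.93 in WT (edgeR adjusted p = 1.68e-09) and 1.32 in KO (adjusted p = 1.32e-12). Above the all-gene median, these rises were 0.68 and 1.01 in WT and 0.997 and 1.44 in KO for mt-Rnr1 and mt-Rnr2. With the length and GC correction mt-Rnr1 was instead lower, by -0.73 in WT and -0.60 in KO, while mt-Rnr2 stayed higher (0.53 and 0.70).

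The 6 protein genes inside the chromosome 1 copy were far lower with apoptotic cells. mt-Co2 had 666, 961 and 1142 counts in WT and 79, 78 and 76 in WT + AC, and 597, 267 and 537 in KO and 80, 87 and 58 in KO + AC. Its log2 fold change was -3.86 in WT (SE 0.34, edgeR adjusted p = 1.83e-06) and -2.95 in KO (SE 0.35, adjusted p = 1.86e-05). mt-Co3 fell by 3.98 in WT and by 3.62 in KO on the same scale, from 747, 839 and 1034 counts in WT to 80, 65 and 57 in WT + AC. All 6 passed in WT, with a median of -3.59, and 5 of 6 passed in KO, with a median of -3.08; the other one, mt-Nd4l, had at most 8 counts in any KO or KO + AC library (log2 -0.20, adjusted p = 0.767).

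The 7 genes outside the copy include both rRNAs, and had a median of -0.69 in WT and 1.05 in KO. In WT 2 were called higher, both of them rRNAs, and 2 lower. In KO 3 were called higher, the rRNAs and mt-Nd5, and 0 lower. The protein genes among them ranged from -1.09 (mt-Nd1) to 0.21 (mt-Nd5) in WT. In KO they ranged from -0.04 (mt-Nd1) to 1.87 (mt-Nd5). mt-Cytb, for example, had 25475, 23283 and 24750 counts in WT + AC and 23806, 24194 and 23502 in KO + AC (log2 -0.69 in WT and 0.39 in KO, adjusted p = 0.0681 and 0.276). These values depended on the processing. With the length and GC correction mt-Cytb was at -1.99 in WT and -1.11 in KO, mt-Nd2 at -2.33 and -1.34 and mt-Nd6 at -3.71 and -2.10. The members called became 1 higher and 14 lower in WT and 2 higher and 13 lower in KO. Of all genes, 84.2% were called in WT and 85.1% in KO with this correction. Per 100 counts of mt-Cytb, mt-Co2 had 2.88 ± 0.21 counts in WT, 3.22 ± 0.18 in KO, 0.317 ± 0.02 in WT + AC and 0.314 ± 0.06 in KO + AC. Of the 2 genes that lie in the copy in part, mt-Co1 was at -1.14 in WT (edgeR adjusted p = 0.00189) and -0.24 in KO (adjusted p = 0.388), and mt-Nd4 was at -0.34 (adjusted p = 0.397) and 1.36 (adjusted p = 0.00655). This grouping by the copy was chosen after the counts were seen, and the plot of differences with apoptotic cells shades it.

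**Figure D4:**
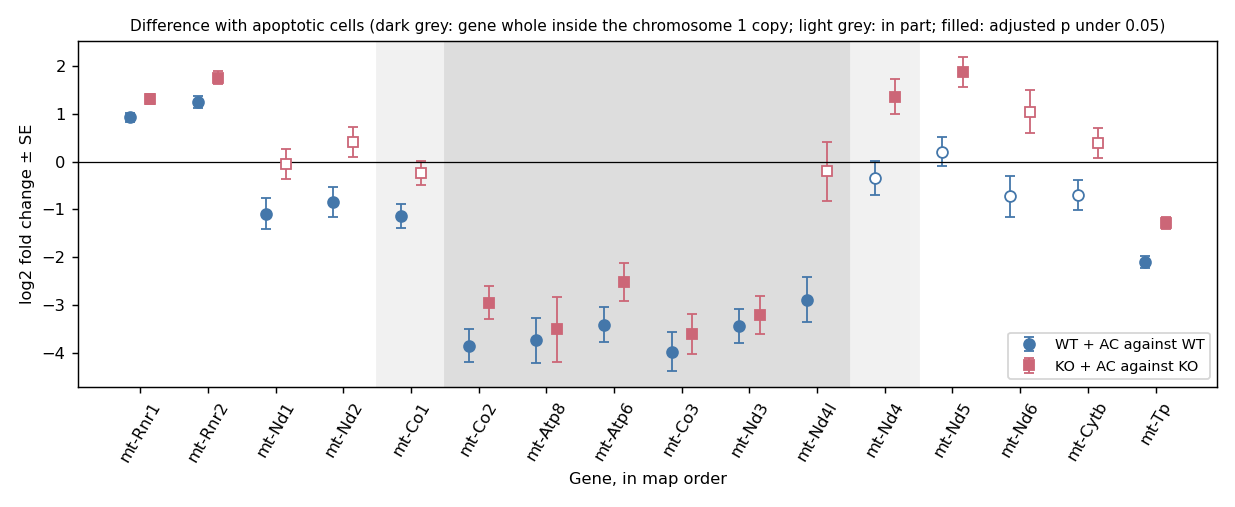
Log2 fold change with against without apoptotic cells (vertical axis, ± SE) in WT (circles) and KO (squares) for 16 members in map order (horizontal axis); filled symbols had an adjusted p under 0.05. Values on dark grey, genes whole inside the chromosome 1 copy, lie at -2.5 or lower except mt-Nd4l in KO, and both rRNAs lie above 0.

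Among the other genes, mt-Nd5 had 27832, 25474 and 26325 counts in WT + AC and 27050, 27927 and 25449 in KO + AC. It did not differ beyond the spread in WT (log2 0.21, SE 0.31, edgeR adjusted p = 0.53) and was higher in KO (1.87, SE 0.32, adjusted p = 0.000383). Per 100 counts of mt-Nd1 it had 43.6 ± 7.20 counts in WT, 33.4 ± 7.17 in KO, 110.7 ± 1.83 in WT + AC and 119 ± 4.82 in KO + AC, with no overlap between the conditions. mt-Nd1 itself was lower in WT + AC (-1.09, edgeR adjusted p = 0.0104) and at -0.04 in KO (adjusted p = 0.901), and mt-Nd2 was at -0.85 (adjusted p = 0.0302) and 0.42 (adjusted p = 0.237). mt-Tp was lower in both, from 90.8 ± 12.3 to 21.1 ± 1.05 CPM in WT (log2 -2.11, edgeR adjusted p = 4.14e-15) and from 55.8 ± 11.2 to 22.8 ± 1.41 in KO (-1.29, adjusted p = 1.1e-10). The marker sums of T cells and of the other cell types named above moved with the condition, and so did the number of symbols with a count. Their part in these differences was not tested.

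Nuclear copies of mitochondrial genes differed between the conditions as well. An annotated transcript that matched the mitochondrial genome at 90% identity or more over at least 80% of its length was taken as a copy, which gave 15 copies, 7 on chromosome 1 and 8 elsewhere. The 7 copies on chromosome 1 had 699 to 2893 counts in all per library without and 305 to 359 with apoptotic cells, so their sum was lower with apoptotic cells. Gm28437, the copy of mt-Co3, had 588, 694 and 782 counts in WT, 729, 254 and 473 in KO, 30, 25 and 22 in WT + AC and 29, 24 and 26 in KO + AC (log2 -5.02 in WT and -4.52 in KO). Gm29216, the copy of part of mt-Co1, had 308, 485 and 495 in WT, 358, 165 and 320 in KO, 230, 189 and 205 in WT + AC and 192, 219 and 209 in KO + AC, a change of -1.33 in WT and -0.76 in KO. Gm28661, the copy of mt-Co2 whose start is printed above, was at -4.12 and -3.44.

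As a sum, the 8 copies on other chromosomes went the other way. They had 118 to 388 counts per library without and 14657 to 18413 with apoptotic cells. Not each copy rose (Gm13341 had 5 to 17 counts without and 1 to 9 with them), and nearly all counts were on Gm13340. This copy of mt-Co1 on chr2:22588103-22589647 (minus strand, 97.6% identity) had 213, 284 and 342 counts in WT and 258, 106 and 208 in KO. It had 16788, 17958 and 15529 in WT + AC and 14291, 15191 and 15373 in KO + AC, a log2 fold change of 5.62 in WT (SE 0.26, edgeR adjusted p = 8.8e-10) and 5.97 in KO (SE 0.27, adjusted p = 5.73e-10). For each 100 counts of mt-Co1 it had 0.123 to 0.189 without and 11.3 to 15.01 with apoptotic cells. Gm11407, a copy of mt-Nd5 on chr4:80002331-80003388 (plus strand, 92.3% identity) that was singled out after its values were seen, had 0 counts in each WT library and 0, 0 and 1 in KO. It had 431, 419 and 363 in WT + AC and 335, 389 and 384 in KO + AC. The mean of WT + AC in unscaled CPM was at least 145-fold higher than WT by the 3-count floor. Summed over the libraries of each group, KO + AC had 1108 counts and KO had 1, a ratio of 1191 after division by total counts. The 95% exact binomial interval of this ratio, 213 to 47086, covers counting error only and not the spread between libraries. Of the genes they copy, mt-Co1 was lower in WT + AC and not called in KO, and mt-Nd5 was not called in WT and higher in KO.

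A 90-base window at the same place of both genes is shown for these pairs because both copies carry differences that a 150 bp read could tell from the mitochondrial gene. The windows are chrM:6528-6617 and chr2:22588358-22588447 for the first pair and chrM:12942-13031 and chr4:80002784-80002873 for the second, and capitals mark bases that differ from the mitochondrial gene.
mt-Co1: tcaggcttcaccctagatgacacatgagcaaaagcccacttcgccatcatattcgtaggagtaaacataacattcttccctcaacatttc
Gm13340: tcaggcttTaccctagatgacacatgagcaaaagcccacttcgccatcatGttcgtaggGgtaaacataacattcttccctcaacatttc
mt-Nd5: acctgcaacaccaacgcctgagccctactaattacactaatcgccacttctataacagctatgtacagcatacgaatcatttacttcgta
Gm11407: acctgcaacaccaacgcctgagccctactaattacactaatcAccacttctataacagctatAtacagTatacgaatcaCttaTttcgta
Gm13340 differs at 3 and Gm11407 at 5 of the 90 bases. Which reads gave the counts on these copies cannot be told from the tables.

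**Figure D5:**
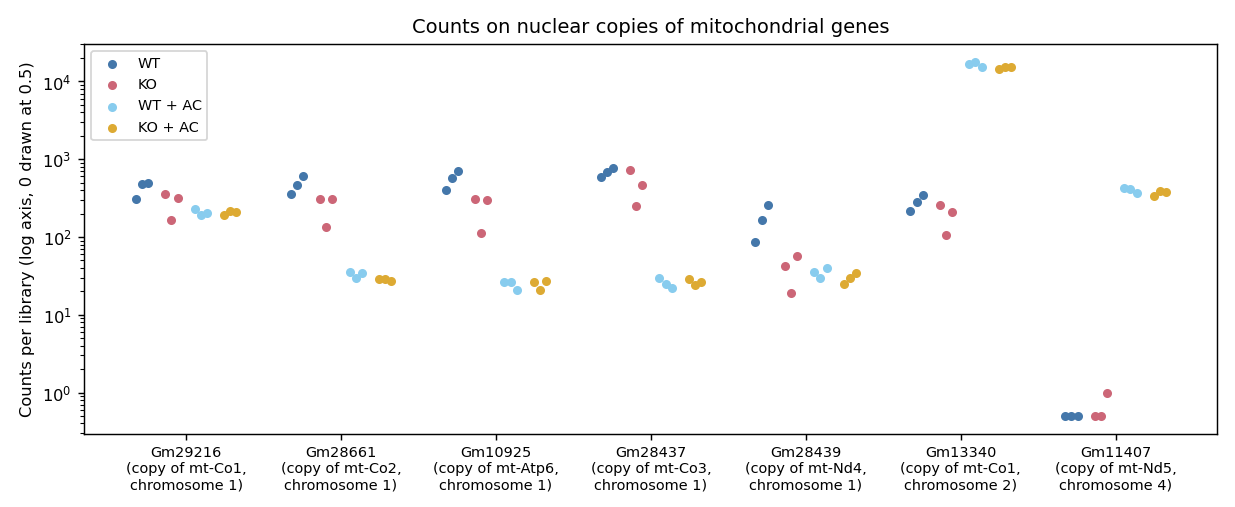
Counts per library on a log axis (vertical; 0 drawn at 0.5) for 7 nuclear copies of mitochondrial genes (horizontal), each point 1 library, coloured by group. The 5 copies on chromosome 1 were lower with apoptotic cells (AC) in WT, while Gm13340 rose from at most 342 to at least 14291 counts and Gm11407 from at most 1 to at least 335.

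Whether the genotype difference changed with apoptotic cells was tested as an interaction. Of 17 members, 3 passed, all with a KO effect that was less negative with apoptotic cells, where 12.7% of all 16810 genes passed, 7.55% in that direction and 5.13% in the other. They were mt-Nd4l (log2 2.69, SE 0.82, edgeR adjusted p = 0.0305), mt-Nd5 (1.66, SE 0.44, adjusted p = 0.0407) and mt-Tp (0.82, SE 0.17, adjusted p = 0.00241). The interaction was above 0 in all 13 protein genes, with a median of 1.05 next to -0.03 over all genes, and 11 of the 13 did not pass. The rRNAs were at 0.39 and 0.51 and did not pass. In place of 3 calls there was 1 when WT 2, WT + AC 2, WT + AC 3 or KO + AC 3 was left out, and there were 5 with KO 3 left out and 8 with WT 1 left out. Fibroblast markers, higher in KO and lower in KO + AC than in the WT libraries beside them, had 7 of 10 interactions called, all below 0, and their part was not tested.

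Nuclear genes that make or use mitochondrial RNA were counted from lists. Without apoptotic cells, of 17 tested genes for transcription and upkeep of mitochondrial DNA, 1 passed, Mterf3 (known as a repressor of mitochondrial transcription), lower in KO by -0.46. Of 18 for processing and stability of mitochondrial RNA, 2 were lower: Pnpt1 (an RNA-degrading enzyme, log2 -0.44) and Trmt10c (a subunit of the RNase that cuts at one end of tRNAs, -0.41). Genes for mitochondrial translation had 1 of 14 higher (Mrpl12, 0.69) and 2 lower (Mtif2, -0.49, and Ptcd3, -0.42). Of 20 genes for charging mitochondrial tRNAs, 0 passed. These counts stand next to 16.2% of all genes called.

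Of 26 nuclear-encoded subunits of the respiratory chain, 8 were higher and 0 lower in KO (7.94% of all genes were called higher), with a median log2 fold change of 0.24. Cox4i1 of complex IV was at 393 ± 4.36 CPM in WT and 620.4 ± 165 in KO (0.66, SE 0.15, edgeR adjusted p = 0.00967). Atp5o of the ATP synthase (0.79), Ndufa1 of complex I (0.49) and Cox5a of complex IV (0.47) were higher too. Of 16 structural proteins of mitochondria 2 were higher, Tomm40 (0.42) and Phb (0.42), and 0 lower. Among 14 genes of mitophagy and mitochondrial dynamics, 3 were higher and 2 lower, with Fkbp8 (0.56) up and the fission and fusion enzymes Dnm1l (-0.53) and Opa1 (-0.49) down. Of 6 regulators of biogenesis 1 was lower, Gabpa (-0.50), and 0 of 8 sensors of nucleic acid passed.

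With apoptotic cells, the same 26 subunit genes had 0 calls between KO + AC and WT + AC. The transcription, translation and biogenesis lists had 0 calls as well, where 11.3% of all genes were called. Elac2, which cuts the other tRNA end, was lower in KO + AC (log2 -0.25, edgeR adjusted p = 0.00734). So were Lars2 (-0.31) and Gatc (-0.26) of 20 genes for tRNA charging. Hspd1 (-0.20) and Slc25a4 (-0.21) were lower of 16 structural genes, and Optn (0.24), Sqstm1 (0.13) and Bnip3l (0.12) higher of 14 mitophagy genes. Of 8 sensors, Ifih1 (0.22) and Nlrp3 (0.12) were higher and Sting1 (-0.34) lower.

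Across conditions, all 26 nuclear-encoded subunits were lower with apoptotic cells in both genotypes, with medians of -1.29 in WT and -1.55 in KO. Over all genes, 48.3% were called higher and 36.7% lower in WT and 49.6 and 36.7% in KO, and the counts below stand next to these shares. Cox6c fell from 265 ± 23.1 to 62.1 ± 1.03 CPM in WT (log2 -2.09) and Sdhb from 224 ± 3.13 to 68.8 ± 1.38 (-1.70). Of 18 transcription and upkeep genes, 4 were higher and 12 lower in WT, and 2 and 11 in KO. Tfam, which packages mitochondrial DNA and starts its transcription, was lower by -1.20 in WT and -1.34 in KO. Of 18 processing genes 6 were higher and 9 lower in WT, and 5 and 8 in KO, with Fastkd1 higher (1.36 and 1.66) and Hsd17b10 lower (-1.18 and -1.49). Of 6 biogenesis regulators, 4 were higher in WT and 5 in KO and none lower, led by Pprc1 (1.77 and 1.98). Of 7 sensors 3 were higher and 2 lower in WT, and 4 and 2 in KO. Nlrp3, the inflammasome sensor, rose from 5.98 ± 0.21 to 421 ± 16.4 CPM in WT (6.14) and by 6.74 on the log2 scale in KO. The rest of these lists had 3 of 20 genes for tRNA charging higher and 13 lower in WT, and 2 and 14 in KO. The 14 translation genes had 0 higher and 11 lower in WT, and 2 and 10 in KO. For 16 structural genes the counts were 0 and 12 in WT, and 2 and 13 in KO, and for 14 mitophagy genes 3 and 7 in WT, and 6 and 8 in KO.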

How the data were processed

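The values are raw counts per gene symbol that the authors deposited in 2 tables, not normalised. The submitters' processing notes name fastp, HISAT2 2.0.5, DESeq2 1.20.0 and the mouse build mm10. How reads were counted, and with which strand setting, is not given in the sources used here. From these counts, all genes were fitted in R 4.3.3 with edgeR 4.0.16 (quasi-likelihood, robust, two-sided, filterByExpr by group, TMM), and Benjamini-Hochberg adjusted p-values were taken over all genes tested. Genes with an adjusted p under 0.05 were called. KO was compared with WT within each table, while the effects of apoptotic cells and the interaction came from 1 model of all 12 libraries over the 54582 symbols that the tables share. CPM are scaled within each fit. The fits were tested on simulated data.

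Gene positions, lengths and sequences came from GENCODE vM21, and BLAST 2.17.0 found the nuclear copies. The named genes were all members, of each list up to 4 called genes with the smallest p, and the 3 nuclear copies with most counts; other copies were chosen after their values were seen. One gene that this rule picks is not reported here. The members and lists were chosen with earlier results of these data known. No 2 libraries agreed within sampling noise. The alternatives were DESeq2 1.42.0, edgeR with DESeq2 size factors, leaving out the filter, scaling from nuclear protein-coding genes, a length and GC correction, a replicate block, joint or 6-library fits, symbols with a count in every library, and leaving out libraries. A same-numbered pair of libraries correlated in its deviations by -0.204, -0.0014 and 0.112 without apoptotic cells, so numbers were not taken as pairs. Counting error is set by depth: an exact binomial (Clopper-Pearson) 95% interval goes with a share of one library and with a ratio of summed counts. It does not cover the spread between libraries.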

Additional observations from a re-analysis of the deposited data

Results flagged for a closer look

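The genotype difference changed with apoptotic cells for 3 members, by the interaction test in edgeR. The KO effect was higher with than without apoptotic cells by 2.69 on the log2 scale for mt-Nd4l (adjusted p = 0.0305), by 1.66 for mt-Nd5 (adjusted p = 0.0407) and by 0.82 for mt-Tp (adjusted p = 0.00241). mt-Tp kept its call in 19 of 19 alternatives, with adjusted p from 1.19e-05 to 0.0123. mt-Nd5 lost it in 11 of 19 (adjusted p 0.00153 to 0.101) and mt-Nd4l in 6 of 18 (0.0214 to 0.245). mt-Nd4l rests on 1 to 23 counts per library. Condition and table cannot be told apart here.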

How the results depend on the processing

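The number of members called between KO and WT without apoptotic cells ranged from 3 to 14 when 1 library was left out. Of all genes, 2.42 to 32.4% were called in these fits. With DESeq2 and with the length and GC correction 8 members were called, next to 16.1 and 7.33% of all genes. Between KO + AC and WT + AC the 2 calls became 1 with the length and GC correction and 0 in the joint fit, with 2 to 3 over single libraries left out. The shares of all genes called were 14.7%, 0.934% and 7.03 to 12.7% in that order. The interaction gave 5 calls with DESeq2 and 1 to 8 over single libraries left out, with 17.8% and 6.49 to 24.9% of all genes called. For the effect of apoptotic cells the counts were 12 to 16 in WT and 11 to 13 in KO over single libraries left out. Of all genes, 82.1 to 86.1% were called in WT and 83.7 to 86.4% in KO in these fits. With the length and GC correction 1 member was higher and 14 lower in WT, and 2 and 13 in KO. The shares of all genes were 84.2 and 85.1%. The protein and rRNA median with this correction was -2.72 in WT and -1.90 in KO, in place of -1.09 and -0.04. With the length and GC correction these log2 effects changed sign: mt-Nd5 to -0.18 in WT (not called either way) and mt-Rnr1 to -0.73 in WT and -0.60 in KO. In KO so did mt-Cytb to -1.11, mt-Nd2 to -1.34 and mt-Nd6 to -2.10. The cause was not tested. The mitochondrial share ranged from 1.74 to 2.29% in WT, 0.846 to 1.17% in KO, 1.51 to 1.56% in WT + AC and 1.49 to 1.503% in KO + AC over single libraries left out. With nuclear protein-coding genes as the denominator it was 1.57% in KO + AC and 1.62% in WT + AC, over shared symbols it was 1.52% in KO + AC, and with 13 protein genes alone 1.30% and 1.32%.

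With the replicate block, 11 members were called between KO and WT (8 of the 10 and 3 others), 2 with apoptotic cells, 13 and 11 for the effects of apoptotic cells and 3 for the interaction. Over all genes the block moved the calls between KO and WT from 2045 to 2496. In the other comparisons it called 10.0, 84.7, 86.0 and 12.9% of all genes, in that order. Not every library correlated best with its own number. Members with fewer than about 10 counts per library, mt-Nd4l, mt-Nd3 and mt-Atp8 with apoptotic cells and all tRNAs but mt-Tp and mt-Ts1, are limited by depth.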
